A study of Mus musculus with 24 samples.

Results

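The lysosome is the acidic organelle in which cells break down proteins, sugars, lipids and the material they take up. Its contents are soluble hydrolases such as the cathepsins, its wall is made of heavily glycosylated membrane proteins, and TFEB is a transcription factor that switches on many of the genes for both. In the brain every cell type has lysosomes, and microglia, the resident phagocytes, are known for a high content of them. The 35 genes described here encode 13 lysosomal proteases and peptidases, 9 hydrolases of sugar chains and sulfate groups, 5 enzymes and carriers of lipids, 6 membrane proteins, granulin, and TFEB itself. They were taken by name from the 55416 gene rows of the table of estimated counts, in which all 35 were found, and each had enough counts to be tested.

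RNA was from the cerebellum of 24 neonatal C57BL/6J mice, 12 labelled Ethanol and 12 labelled Vehicle, called Control here, with 1 library for each animal. Per the study's methods, pups received ethanol at 4 g/kg/day in intralipid by intragastric gavage from P4, in a model of third-trimester exposure, and Control pups received intralipid with water, so that gavage, lipid and perfusion before dissection were common to both groups and no untouched animals were included. Tissue was taken at P5 after 1 dose or at P6 after 2 doses, a day after dosing ended. By the methods, each of 6 litters gave 1 male and 1 female of each treatment. The labels give no age, sex or litter for an animal, so none of these entered the test, and the ages were compared together. The labels name the tissue only as brain, and markers of granule neurons and Purkinje cells were detected in all libraries. Total counts per library were 26982564 to 38804942 in Ethanol and 29039888 to 38696615 in Control animals. In 4 libraries, 2 of each group, the choroid plexus transcript Ttr was at 1.15 to 3.57 CPM (counts scaled to the depth of the library), against 322 to 5049 CPM in the others, and without these 4 libraries the same 10 lysosomal genes passed the test as with them. The animal numbers fall into 6 runs of 4, with 2 Ethanol and 2 Control animals in each, and Ctss and the microglia markers stood higher in some runs than in others, so differences are also given within runs.

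Short promoter windows are shown first, because TFEB binds an E-box with the core CACGTG that is known from promoters of lysosomal genes. The mouse promoters of RefSeq, in build GRCm38.p6, had an entry for 31 of the 35 genes. CACGTG, which reads the same on both strands, lay between 250 bases before and 50 bases after a start in 12 of these 31 genes, against 8.09% of all 27025 genes and 7.15% of all 32851 promoters. The longer TCACGTG, searched on both strands and overlapping the first motif by construction, was present in 10 of the 31 genes, against 4.29% of all genes. In the last 120 bases before a start, 9 of the 31 genes held CACGTG, against 4.20% of all genes. Over the whole stretch from 250 bases before to 50 after a start, CACGTG was in 3 of the 7 higher genes with an entry. It was also there in the 1 gene that was lower and in 8 of the 23 that did not pass the test. A match of letters is not a binding site, and binding was not measured. The 5 windows below, with CACGTG in capitals, come from Ctsd and Lgmn, which were higher, Sgsh, which was lower, and Lamp1 and Mcoln1, which did not pass and held the motif 4 and 2 times in the window. The window of Lgmn belongs to only one of its annotated starts.
Ctsd, chr7:142387828-142387947, minus strand: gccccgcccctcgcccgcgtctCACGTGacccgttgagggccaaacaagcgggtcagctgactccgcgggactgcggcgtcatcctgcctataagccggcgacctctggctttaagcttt
Lgmn, chr12:102439093-102439212, minus strand: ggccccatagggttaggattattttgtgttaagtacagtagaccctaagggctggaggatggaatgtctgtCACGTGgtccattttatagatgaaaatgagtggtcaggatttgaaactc
Sgsh, chr11:119355511-119355630, minus strand: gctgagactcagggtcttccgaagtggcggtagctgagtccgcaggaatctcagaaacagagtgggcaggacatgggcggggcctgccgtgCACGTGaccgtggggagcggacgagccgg
Lamp1, chr8:13159041-13159160, plus strand: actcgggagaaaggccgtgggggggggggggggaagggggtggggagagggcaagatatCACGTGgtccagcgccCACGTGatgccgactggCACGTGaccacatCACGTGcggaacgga
Mcoln1, chr8:3500399-3500518, plus strand: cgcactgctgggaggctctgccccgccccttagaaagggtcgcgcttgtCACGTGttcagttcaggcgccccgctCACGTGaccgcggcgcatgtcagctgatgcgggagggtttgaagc

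The first question was which lysosomal genes differed between Ethanol and Control animals. By edgeR's quasi-likelihood test with Benjamini-Hochberg adjustment over all 17736 genes tested and a threshold of 0.05, 9 of the 35 genes were higher in Ethanol animals, 1 was lower and 25 did not pass. Of all genes tested, 9.07% were higher and 5.8% lower, 14.9% in either direction. Among the 12012 genes expressed at least as highly as the lowest of the 35, 10.8% were higher and 6.14% lower. The 9 higher genes were Ctsb, Ctsl, Cd63, Ctsz, Lgmn, Npc1, Ctsd, Grn and Laptm5, and the lower gene was Sgsh. The differences were small. The 9 genes were 7.04% to 12.7% higher, with log2 fold changes of 0.10 to 0.17 and standard errors of 0.028 to 0.053. Of the 25 others, 8 had an unadjusted p under 0.05. The share of all genes at that unadjusted cutoff is not given, so such counts, here and below, have no background beside them. The median log2 fold change of the 35 genes was 0.047, with 25 values above 0 and 10 below, and that of all genes tested was -0.0057, with 47.7% of values above 0. Since the genes were listed with earlier results of these animals known, these counts are a description of the list.

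**Figure D1:**
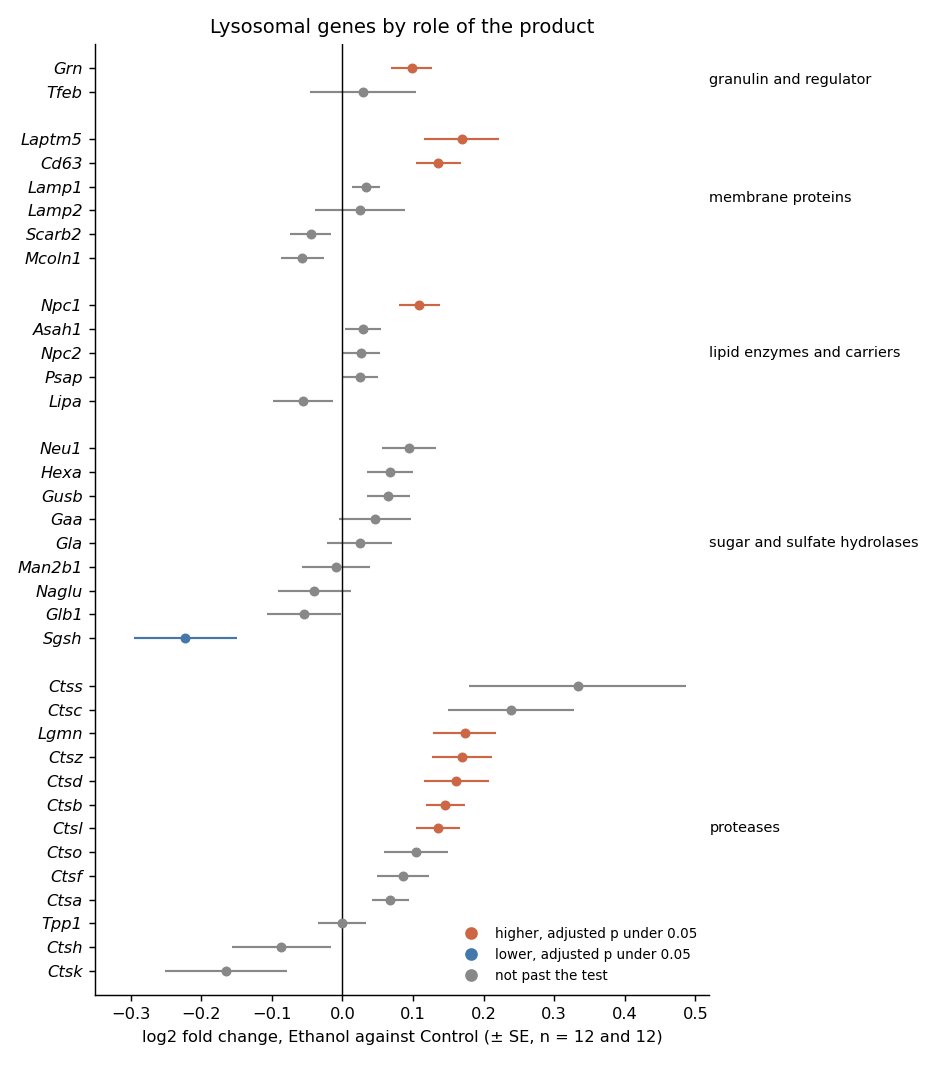
Log2 fold change of each of the 35 lysosomal genes, Ethanol against Control, as a point with its standard error (12 animals in each group), grouped by the role of the product and coloured by the test. The grouping by role was made after the values were seen. The 9 genes past the test upward lie between 0.10 and 0.17 and 5 of them are among the 13 proteases. Ctss and Ctsc lie farther right with wider errors and did not pass.

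The genes are described by role of the product, a grouping made after the values were seen, so counts per role are description only. Of all genes tested, 9.07% were higher and 5.8% lower. Proteases held 5 of the 9 higher genes, with a median log2 fold change of 0.14 over the 13 genes, 10 above 0. Ctsb, the cysteine protease cathepsin B, showed the smallest p. The lowest, median and highest Control values were 354.9, 366.5 and 403.7 CPM, and the Ethanol values were 374.6, 417.4 and 442.3 CPM. The groups overlapped, but 8 of the 12 Ethanol values exceeded every Control value and all 12 exceeded the median of Control. Mean values were 372 ± 16.6 and 411 ± 18.5 CPM (SD, n = 12 each), for a log2 fold change of 0.15 (SE 0.028, edgeR adjusted p = 0.00078). Ctsl, or cathepsin L, is a cysteine endopeptidase related to cathepsin B. Control values ran from 117.6 through 127.1 to 143.7 CPM and Ethanol values from 127.6 through 142.1 to 151.1 CPM, with all 12 Ethanol animals above the Control median and 6 above the Control range. Mean Ctsl was 128 ± 7.41 and 141 ± 6.81 CPM, a log2 fold change of 0.14 (SE 0.031, edgeR adjusted p = 0.0040). A stretch of 28.2% of the exon bases of Ctsl in the GRCm38 annotation is shared with an antisense gene, and 16.3% of those of Ctsb with Fdft1 on the other strand. Fdft1 itself had a log2 fold change of 0.05 (edgeR adjusted p = 0.517).

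Ctsz, or cathepsin X, removes single residues from the carboxyl end of proteins. Control animals had 44.3, 52.1 and 58.6 CPM as lowest, median and highest value, and Ethanol animals 53.1, 57.9 and 68.1 CPM, all 12 of them over the median of Control. Mean Ctsz was 52.4 ± 3.75 and 58.9 ± 4.76 CPM, a log2 fold change of 0.17 (SE 0.043, edgeR adjusted p = 0.0078). Lgmn encodes legumain, which cuts after asparagine and processes cathepsins to their mature forms. Its level was 104.4, 108.0 and 134.1 CPM with Control treatment and 115.8, 124.1 and 153.3 CPM with ethanol. Only 2 Ethanol animals exceeded the highest Control animal, yet all 12 exceeded the median of Control and 9 Control animals lay below every Ethanol animal. Mean Lgmn was 112 ± 8.92 and 127 ± 10.97 CPM, a log2 fold change of 0.17 (SE 0.044, edgeR adjusted p = 0.0088). Ctsd, the aspartic protease cathepsin D, was 267 CPM in the lowest, 305 CPM in the median and 351 CPM in the highest Control animal. The corresponding Ethanol values were 295, 346 and 379 CPM, and 11 of these 12 animals exceeded the median of Control. Mean Ctsd was 305 ± 23.9 and 342 ± 29.9 CPM, a log2 fold change of 0.16 (SE 0.046, edgeR adjusted p = 0.018). Ctsd shares 31.5% of its exon bases with a gene model on the same strand, Gm49369, which was near the limit of detection at a mean log2 CPM of -1.11.

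The other 8 proteases did not pass. Ctss, or cathepsin S, a protease of phagocytes that works in antigen presentation, had the largest log2 fold change of the 35 genes, 0.33, with the widest standard error, 0.15 (edgeR adjusted p = 0.152). Control values were 11.99, 12.9 and 24.3 CPM and Ethanol values 14.5, 15.8 and 33.0 CPM. Every Ethanol animal exceeded the median of Control, and whole runs differed within each group. In log2 CPM, Ctss was 3.59 to 3.998 over the animals of runs 1 to 3, 3.62 to 4.42 in run 4, and 3.95 to 5.05 over those of runs 5 and 6. With the run as a block, which raised the share of all genes called to 11.2% higher and 7.68% lower, 12 of the 35 genes were higher and 1 lower, and the log2 fold change of Ctss was 0.33 and passed the test (edgeR adjusted p = 0.0033). Ctsc, which activates serine proteases of immune cells, was at 0.24 (SE 0.089, edgeR adjusted p = 0.070), and passed with the run as a block (0.014) and with DESeq2 (0.042). Ctsa, which also protects other hydrolases, had 0.07 (edgeR adjusted p = 0.076), Ctso 0.10 (0.121) and Ctsf 0.09 (0.122). Ctso passed with the run as a block (0.047). Below 0 lay Ctsk at -0.16 (0.213) and Ctsh at -0.09 (0.457), and the tripeptidyl peptidase gene Tpp1 was at 72.8 CPM in both groups.

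**Figure D2:**
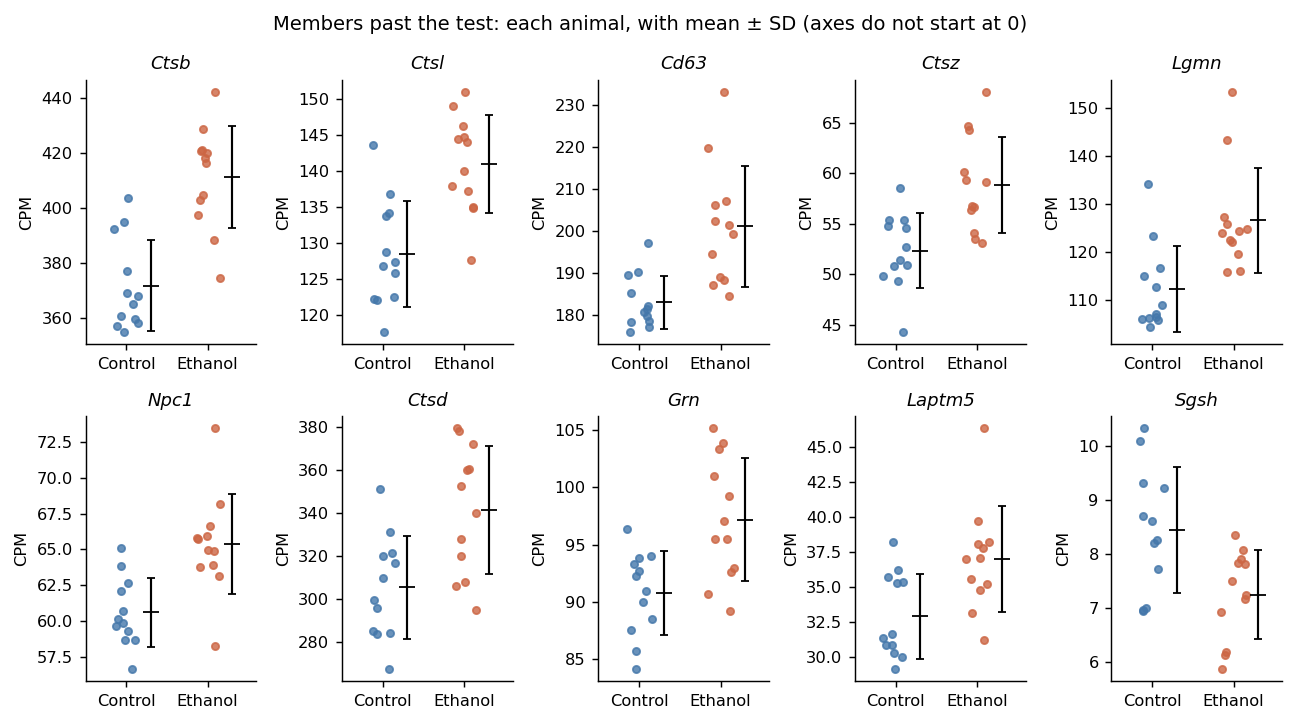
CPM of each animal for the 10 lysosomal genes past the test, Control and Ethanol side by side, with the mean and SD of 12 animals beside the points; the axes do not start at 0. The groups overlap for every gene, while all 12 Ethanol animals lie above the Control median for Ctsb, Ctsl, Cd63, Ctsz and Lgmn and all 12 below it for Sgsh.

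Of the hydrolases of sugar chains and sulfate groups, none of the 9 was higher by edgeR or DESeq2, with 3 higher at an unadjusted p under 0.05, 1 was lower, and the median log2 fold change was 0.02. The lower gene was Sgsh, a sulfatase that degrades heparan sulfate and is defective in Sanfilippo disease type A. Control animals had 6.93, 8.44 and 10.3 CPM, and Ethanol animals 5.86, 7.36 and 8.35 CPM. All 12 Ethanol animals lay below the Control median and 6 Control animals lay above every Ethanol animal. Mean Sgsh was 8.44 ± 1.17 and 7.24 ± 0.825 CPM, and it fell by 0.22 on the log2 scale (SE 0.073, edgeR adjusted p = 0.039). Sgsh overlaps Card14 on the other strand over 21.9% of its exon bases, and its adjusted p rose to between 0.056 and 0.074 when any 1 of 9 libraries was left out. The other 8 hydrolases had log2 fold changes from -0.05 to 0.09. Closest to the threshold was Neu1, a sialidase that works in a complex with the product of Ctsa, at 0.09 (SE 0.038, edgeR adjusted p = 0.092). Next were the glucuronidase gene Gusb at 0.06 (0.160) and Hexa, which takes part in the breakdown of gangliosides, at 0.07 (0.174). Gaa (0.05), Gla (0.02), Glb1 (-0.05), Naglu (-0.04) and Man2b1 (-0.0089), which digest glycogen, galactolipids, galactosides, heparan sulfate and mannose chains, had adjusted p-values of 0.546 to 0.928.

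Among the 5 genes of lipid handling, Npc1, the membrane protein that exports cholesterol from lysosomes, was higher. Lowest, median and highest values were 56.7, 60.0 and 65.1 CPM for Control, and 58.3, 65.3 and 73.4 CPM for Ethanol, with 11 Ethanol animals over the median of Control. Mean Npc1 was 60.6 ± 2.40 and 65.4 ± 3.51 CPM, a log2 fold change of 0.11 (SE 0.029, edgeR adjusted p = 0.011). Npc2, the soluble partner that hands cholesterol to NPC1, had a log2 fold change of 0.03 (SE 0.027, edgeR adjusted p = 0.574). Psap encodes prosaposin, the precursor of activators of sphingolipid breakdown, and had the highest level of the 35 genes, also per length. At 847 ± 28.4 and 862 ± 34.5 CPM (SD, n = 12 each), it differed by less than the spread between animals (log2 fold change 0.02, edgeR adjusted p = 0.557). Asah1, an acid ceramidase, was at 0.03 and Lipa, the acid lipase of cholesteryl esters, at -0.06 (edgeR adjusted p = 0.497 and 0.410).

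Of the 6 membrane proteins, the genes of a tetraspanin and of a protein of blood-lineage cells were higher, and the structural glycoproteins did not pass. Cd63, a tetraspanin of late endosomes, lysosomes and exosomes, had Control values of 175.8, 181.0 and 197.0 CPM and Ethanol values of 184.5, 200.3 and 233.1 CPM. All 12 Ethanol animals exceeded the median of Control and 7 its range. Mean Cd63 was 183 ± 6.37 and 201 ± 14.4 CPM, a log2 fold change of 0.14 (SE 0.032, edgeR adjusted p = 0.0051). Laptm5, which is expressed mainly in cells of the immune system, was at 29.2, 31.5 and 38.3 CPM with Control treatment and at 31.2, 37.1 and 46.3 CPM with ethanol. Mean Laptm5 was 32.9 ± 3.03 and 37.0 ± 3.76 CPM, a log2 fold change of 0.17 (SE 0.053, edgeR adjusted p = 0.030), with 11 of the 12 Ethanol values over the median of Control and only 2 over its range. The adjusted p of Laptm5 rose to between 0.051 and 0.060 when any 1 of 8 libraries was left out. Lamp1, a main glycoprotein of the lysosomal wall, had nearly the same range in both groups, 361.7, 377.1 and 394.8 CPM for Control and 364.3, 385.2 and 405.2 CPM for Ethanol. Here too 11 of the 12 Ethanol values were over the median of Control. Means of 378 ± 8.81 and 387 ± 10.4 CPM gave a log2 fold change of 0.03 (SE 0.020, edgeR adjusted p = 0.292). Lamp2, which takes part in the fusion of autophagosomes and chaperone-mediated autophagy, was at 0.02 (0.844). Scarb2, a membrane protein that also carries an enzyme to lysosomes, was at -0.05 (0.325), and the calcium channel gene Mcoln1 at -0.06 (0.223).

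Grn and Tfeb complete the list. Grn encodes progranulin, a secreted and lysosomal protein whose loss causes frontotemporal dementia or neuronal ceroid lipofuscinosis. Control values were 84.2, 91.6 and 96.4 CPM and Ethanol values 89.2, 96.3 and 105.1 CPM, 10 of the 12 over the median of Control. Mean Grn was 90.8 ± 3.68 and 97.2 ± 5.34 CPM, a log2 fold change of 0.10 (SE 0.029, edgeR adjusted p = 0.021). For Tfeb, the Control animals had 5.59, 6.87 and 9.35 CPM and the Ethanol animals 5.81, 7.17 and 8.96 CPM. The ranges coincided almost entirely, although 11 of the 12 Ethanol values were over the median of Control. Means of 7.22 ± 1.11 and 7.36 ± 0.776 CPM gave a log2 fold change of 0.03 (SE 0.075, edgeR adjusted p = 0.843). RNA level does not show the activity of TFEB, which is controlled by phosphorylation and its place in the cell.

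Levels could be compared between genes only per length. Per kilobase of exon in the GRCm38 annotation, Control CPM was highest for Psap (309 ± 10.3), followed by Lamp1 (170 ± 3.95), Ctsd (144 ± 11.3), Cd63 (126 ± 4.39) and Ctsb (78.4 ± 3.49; SD, n = 12 each). Of these neighbours, Ctsd and Cd63 lay closest to each other, at a distance of more than the SD of either. At the other end were Gla (3.26 ± 0.243), Sgsh (1.94 ± 0.267) and Tfeb (1.80 ± 0.277), of which the last 2 did not differ beyond their spread. Genes higher in Ethanol animals ranged in Control level per kilobase from 144 (Ctsd) to 11.6 (Npc1), so none was among the lowest members. Of members at low level, Ctsc (SE 0.089), Ctsk (0.086) and Tfeb (0.075) had wider standard errors than the higher genes (0.028 to 0.053). Gla (0.047) did not. How far precision bears on which genes passed was not tested.

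Within the 6 runs, 15 of the 35 genes were higher in Ethanol animals in every run, counted as a log2 ratio of mean CPM above 0 from 2 against 2 animals, and these included all 9 genes that passed upward. The same held for 11.3% of all genes tested and for 13.5% of those expressed at least as highly as the lowest of the 35. The other 6 were Ctsc, Ctso, Ctss, Gusb, Lamp1 and Neu1. None of the 35 genes was lower in all 6 runs, and the share of all genes lower in every run was not computed. The size varied between runs. Ctsb had log2 ratios of 0.19 to 0.24 in runs 1 to 3 and 0.02 to 0.13 in runs 4 to 6, and Ctsl had 0.30 in run 2 and 0.05 in run 5. Ctsd was 0.41 in run 2 and 0.02 in run 1, with 0.11 to 0.15 in the other runs. Sgsh had -0.77 in run 1, -0.33 in run 3, -0.18 in run 2 and -0.14 in run 4, and was above 0 in runs 5 (0.12) and 6 (0.02). Leaving out single runs changed calls, with fewer animals in each fit. Over all genes tested, fewer were also called lower without run 1, run 3 or run 4. Without run 1, Sgsh fell by 0.11 on the log2 scale and no longer passed (edgeR adjusted p = 0.356), and Lgmn (0.054), Npc1 (0.063), Laptm5 (0.095) and Grn (0.088) also missed the threshold. Without run 2, 5 genes remained past the test, and Ctsd (0.143), Ctsz (0.077), Laptm5 (0.055), Grn (0.073) and Sgsh (0.059) did not. Ctsb, Ctsl and Cd63 passed whichever run was left out.

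**Figure D3:**
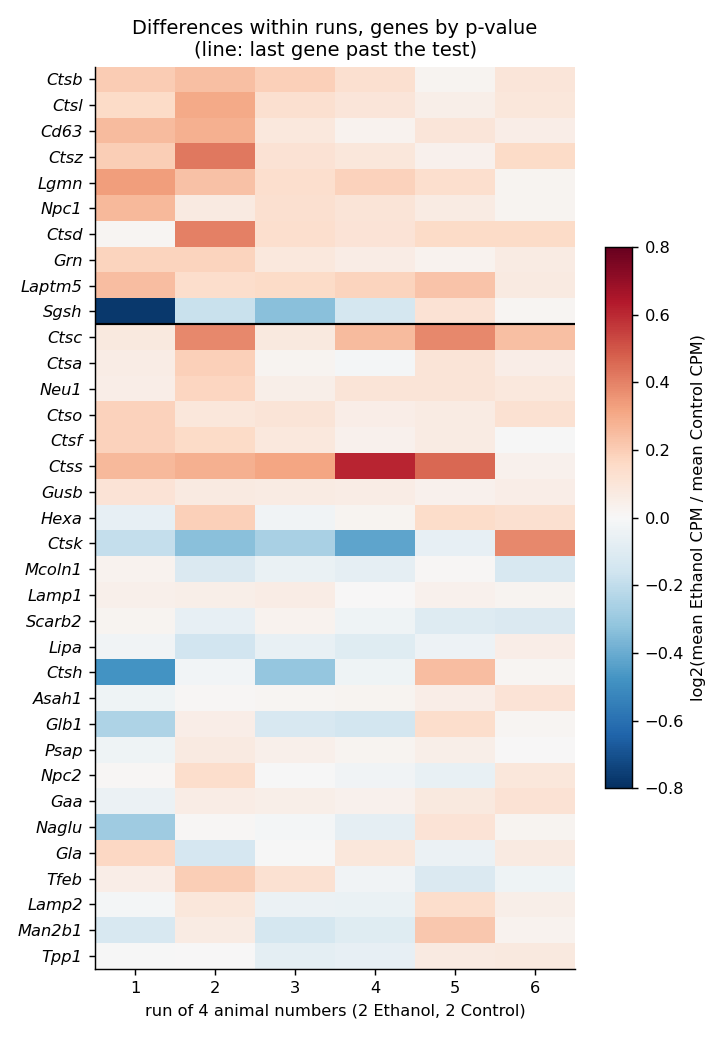
Log2 ratio of the mean Ethanol to the mean Control CPM of each lysosomal gene within each run of 4 animal numbers, as colour from blue (lower) to red (higher), with genes in order of p-value and a line under the last that passed. The rows of the 9 higher genes are red in all 6 runs, and Sgsh is blue in runs 1 to 4 only.

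Markers of several cell types also differed between the groups, where 9.07% of all genes tested were higher and 5.8% lower. In bulk tissue, more cells of a type and more RNA per cell cannot be told apart. Of 20 microglia markers, none at 0, 7 were higher by the test (C1qa, C1qb, C1qc, Tyrobp, Fcer1g, Irf8 and Trem2) and 2 lower (P2ry12 and Siglech). Their summed level had a range of 206 to 297 CPM (median 223) among Control and of 235 to 390 CPM (median 260) among Ethanol animals. Of the defining genes of microglia, P2ry12 fell by 0.53 on the log2 scale (edgeR adjusted p = 0.012), and Cx3cr1 (0.15, adjusted p = 0.169), Aif1 (0.17, 0.605), Tmem119 (0.03, 0.849) and Csf1r (-0.0017, 0.994) did not pass. Of 9 markers of border macrophages, 4 were higher and none lower, with sums of 84.2 to 114 CPM for Control and 90.1 to 149 CPM for Ethanol. Markers of astrocytes and Bergmann glia also moved, with 4 of 10 higher and 1 lower and sums of 4037 to 4649 CPM for Control and 4427 to 4917 CPM for Ethanol, as did those of endothelium, with 1 of 9 higher and 5 lower and sums of 397 to 456 and 345 to 408 CPM. None of the 10 choroid plexus markers passed in edgeR or had an unadjusted p under 0.05, with Ttr at -0.27 (SE 0.88, edgeR adjusted p = 0.880). The same was so for the 8 markers of the oligodendrocyte lineage and for the 5 tested of 7 markers of neutrophils and blood, while 2 of 7 of Purkinje cells were lower, and 1 of 9 of granule neurons was higher and 1 lower. The part of astrocyte, macrophage and endothelial markers in the lysosomal differences was not tested.

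The microglia markers could be set beside the lysosomal genes directly. The mean log2 CPM of the 20 markers was 2.93 ± 0.135 in Control and 3.04 ± 0.225 in Ethanol animals (SD, n = 12 each), a small difference between the groups, over markers that went both ways. With this mean as a covariate, 10 lysosomal genes were higher and 1 lower, against 8.68% and 5.66% of all genes in the same fit, and 9 of the 10 earlier calls were kept. How far the covariate takes up changes in microglia was not tested. Log2 fold changes were close to those without it for Ctsb (0.14, edgeR adjusted p = 0.0015), Ctsd (0.16, 0.029), Cd63 (0.15, 0.0035) and Ctsz (0.17, 0.010). Lgmn was at 0.14 (0.017), Grn at 0.09 (0.047), and Laptm5 went from 0.17 to 0.10 and was at the threshold (0.0499). Ctss went from 0.33 to 0.11 (0.178). Sgsh no longer passed (0.057) with the same log2 fold change, while Ctso (0.13, 0.041) and Mcoln1, which was lower (-0.08, 0.036), passed.

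Across the 24 animals, with the mean of each group removed, the level of 5 of the 35 genes rose with the marker mean by a two-sided permutation test with 100000 permutations and adjustment over 35 relations. For Ctss, Pearson r was 0.94 and Spearman rho 0.82 (permutation p = 1e-05 for both, the smallest the permutations can give, adjusted p = 0.00017 and 0.00035). For Laptm5, r was 0.82 and rho 0.77 (permutation p = 1e-05 and 2e-05, adjusted 0.00017 and 0.00035). Mcoln1 (r 0.61, rho 0.59), Ctsf (0.59, 0.59) and Lgmn (0.59, 0.53) had permutation p-values for r of 0.0016, 0.0013 and 0.0037, adjusted to 0.014, 0.014 and 0.026. By rho, Lgmn missed the threshold (permutation p = 0.010, adjusted 0.0501), Neu1 passed (rho 0.62, permutation p = 0.0031, adjusted 0.022), and Ctso passed with a negative sign (rho -0.58, permutation p = 0.0062, adjusted 0.036). Without the 2 animals farthest from the median, r was 0.90, 0.73, 0.54, 0.59 and 0.51 in the same order. The 4 genes with the smallest p for ethanol had r of 0.07 (Ctsb), 0.08 (Ctsl), -0.24 (Cd63) and -0.05 (Ctsz), and Ctsd had 0.03. For Ctsb, r was 0.63 within Control and -0.26 within Ethanol animals. Npc1 (0.83 and -0.14), Grn (0.73 and 0.07) and Lgmn (0.98 and 0.39) also had a higher r within Control. Of the genes higher in Ethanol animals, only Ctsd went the other way (-0.12 and 0.11). These differences were not tested. The marker mean itself differed between runs, at 2.73 to 2.95 over runs 1 to 3, 2.87 to 3.21 in run 4, and 2.99 to 3.47 over runs 5 and 6. When the mean of each run and group was removed as well, which leaves 12 pairs of animals, none of the 35 relations passed by the exact test over 4096 swaps, and 6 had an unadjusted exact p under 0.05. Ctss (r 0.85, exact p = 0.0029, adjusted 0.051) and Lgmn (0.79, 0.0020, adjusted 0.051) came closest. By exact p, Tfeb at 0.63 (adjusted 0.228) was next, then Hexa at 0.62 (adjusted 0.270), Laptm5 at 0.58 (adjusted 0.270) and Ctsf at 0.64 (adjusted 0.280). Mcoln1 was at 0.21 (adjusted 0.860). Ctsd was at 0.59 (adjusted 0.346) in place of 0.03, Ctsl at 0.26, Ctsb at 0.13, Cd63 at -0.03 and Ctsz at -0.15, and 28 of the 35 values were above 0, so the order of the genes changed when run means were removed.

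**Figure D4:**
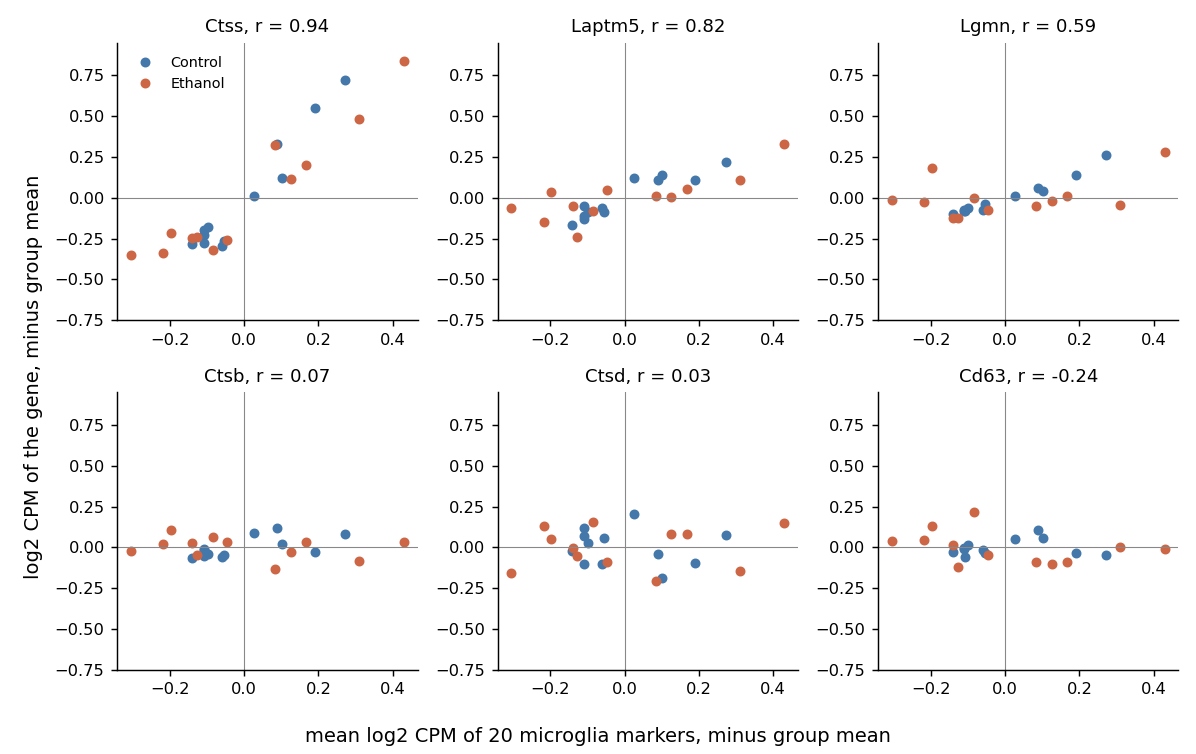
Log2 CPM of 6 lysosomal genes against the mean log2 CPM of 20 microglia markers, each point an animal and each axis with the group mean removed (12 Control and 12 Ethanol animals). With runs pooled, r is 0.94 for Ctss, 0.82 for Laptm5, 0.59 for Lgmn, 0.07 for Ctsb, 0.03 for Ctsd and -0.24 for Cd63; with run means removed, Ctsd is at 0.59 and Laptm5 at 0.58.

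Other genes of the lysosome were read from the same fit, in lists that hold none of the 35. Of 29 tested hydrolases, 3 were higher and 1 lower, with a median of -0.02, against 9.07% and 5.8% of all genes. Among them were, upward, the phospholipase gene Pla2g15 (log2 fold change 0.14, edgeR adjusted p = 0.021) and the dipeptidyl peptidase gene Dpp7 (0.10, 0.048), and downward the iduronidase gene Idua, which like Sgsh acts on heparan sulfate (-0.13, 0.038). Of 26 membrane proteins, 4 were higher and 1 lower (median 0.03). Cd68, a glycoprotein of macrophage lysosomes, went from a mean of 10.3 to 14.3 CPM (0.49, edgeR adjusted p = 7.7e-05), and the peptide and histidine transporter genes Slc15a3 (0.58, 0.0020) and Slc15a4 (0.20, 0.0099) and the chloride-proton exchanger gene Clcn7 (0.09, 0.013) were also higher. The nucleoside transporter gene Slc29a3 was lower (-0.20, 0.0085).

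Of 21 tested subunits and partners of the proton pump that acidifies lysosomes, 3 were higher (14.3%) and none lower by edgeR (median 0.02). Over all genes tested, 9.07% were higher and 5.8% lower. The 3 pump genes were Atp6v0b (0.11, edgeR adjusted p = 0.0076), Atp6v0a2 (0.09, 0.027) and Atp6v1b2 (0.06, 0.044). In the list of 20 genes that sort new enzymes to lysosomes, 2 were higher and none lower (median 0.01), a share higher of 10%, near that of all genes. They were Gga3, an adaptor for mannose 6-phosphate receptors, at 70.0 and 82.1 CPM (0.23, edgeR adjusted p = 1.2e-05) and Cln8, which helps carry enzymes out of the endoplasmic reticulum, at 27.9 and 34.6 CPM (0.31, 4.3e-05).

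Of 23 genes of the TFE factors and of nutrient sensing at the lysosome, 4 were higher (17.4%) and none lower (median 0.02), against 9.07% and 5.8% of all genes. Flcn, folliculin, which controls TFE factors through the Rag GTPases, had means of 47.3 and 59.3 CPM, and its Control range of 43.4 to 52.5 CPM did not overlap the Ethanol range of 55.2 to 65.2 CPM (0.33, edgeR adjusted p = 1.2e-07). Zkscan3, described as a repressor of lysosomal and autophagy genes, was at 0.17 (4.3e-05), Lamtor3, a subunit of the Ragulator scaffold, at 0.17 (0.00025) and Tsc1, an inhibitor of mTORC1, at 0.13 (0.0064). Of 33 autophagy genes, 5 were higher (15.2%) and 1 lower (median 0.01). Among those higher were Plekhm1 (0.15, edgeR adjusted p = 0.0034) and Vps18 (0.14, 0.013), which act in fusion with lysosomes. Atg16l1 (0.11, 0.011), which acts in the making of autophagosomes, was also higher, and the fusion SNARE gene Stx17 was lower (-0.14, 0.020).

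Inhibitors of cathepsins and related proteases completed the lists, with 3 of 8 tested genes higher (37.5%, against 9.07% of all genes) and none lower (median 0.0032). Serpina3n, a secreted serpin of reactive astrocytes, went from 5.43 to 17.1 CPM (1.66, edgeR adjusted p = 5.1e-05) and Serpina3g from 0.677 to 1.81 CPM (1.42, 0.028). Cst3 encodes cystatin C, an inhibitor of cysteine cathepsins that astrocytes and microglia release, and went from 174 to 198 CPM (0.19, 0.021). Calls of these further lists depended on single runs. Without run 4 the hydrolases held 0 calls in place of 4, without run 3 the pump list held 1 in place of 3, without run 1 autophagy held 2 in place of 6, and without run 3 or 4 the inhibitors held 1 in place of 3. Where edgeR called none lower, the genes lower at an unadjusted p under 0.05 were 1 of the pump list, 0 of the sorting list, 1 of the nutrient-sensing list and 2 of the inhibitors.

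**Figure D5:**
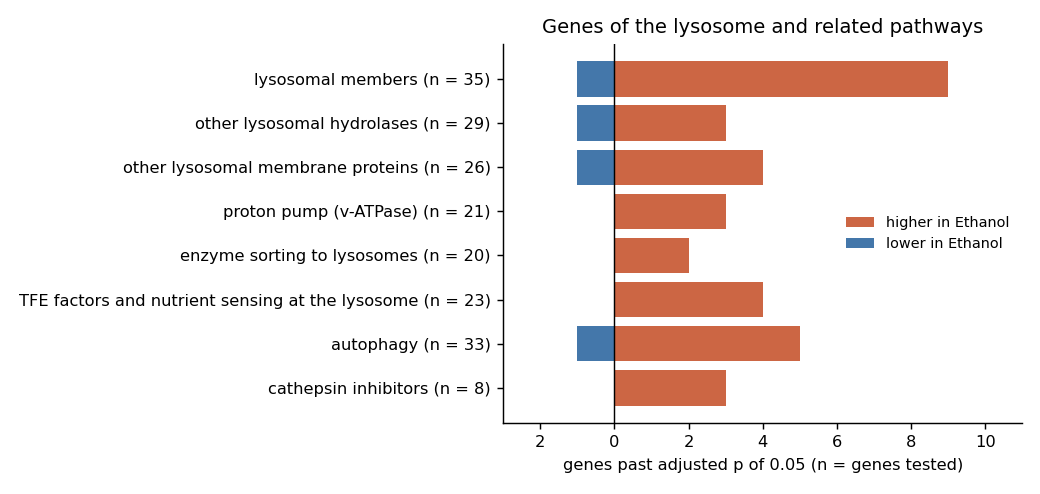
Number of genes past adjusted p of 0.05 in the 35 lysosomal genes and 7 further lists, to the right if higher and to the left if lower in Ethanol animals, with the genes tested in each list in brackets. The 35 genes hold 9 higher (25.7%) and 1 lower, and no further list holds more than 5 higher genes. The lists differ in size, and the 8 tested inhibitors hold 3 higher (37.5%). Of all genes tested, 9.07% were higher.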

How the data were processed

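Poly(A) RNA of 24 cerebella was sequenced in pairs of reads, 1 library an animal. The deposited table holds estimated counts, summed per gene by the authors with nf-core/rnaseq. STAR, Salmon, limma and GRCm39 stand in the submitters' processing notes with no version, and neither the gene annotation nor the strand setting used for counting is given in the sources used here. Columns were matched to labels through the animal number, with 0 left over. As 10.9% of the values lay farther than 0.01 from a whole number, they were rounded before testing. No library repeated another (the closest pair differed with a mean chi-square of 4.95 per gene).

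Of 55416 rows, filterByExpr kept 17736. After TMM scaling (factors from 0.982 to 1.01), edgeR 4.0.16 under R 4.3.3 tested Ethanol against Control (glmQLFit, robust, and glmQLFTest, Benjamini-Hochberg). CPM values are counts scaled by the TMM-adjusted library size. Each library is 1 animal by label, and p-values rest on the spread between animals, with litter not in the fit although littermates were used. Alternatives were limma-trend and limma-voom (limma 3.58.1), DESeq2 1.42.0, scaling by upper-quartile or RLE factors, no filter, at least 1 CPM in 12 libraries, runs as a block, the microglia marker mean as covariate, and the fit without 4 libraries of low Ttr (log2 CPM under 4), without each run and without each library. Correlations used log2 CPM (prior count 2) in Python 3.11.15 with numpy 2.4.6 and pandas 2.3.3. Removing run means there was added after the data were seen. Plots were drawn with matplotlib 3.10.9. Exon lengths and overlaps are from GENCODE for GRCm38, an earlier build than that of the counts, and serve only for levels per length and for shared bases.

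The 35 genes, the further lists and the markers were chosen with earlier results of these data known, and the grouping by role was made after the values were seen. Values were given in full for genes past the test and for Tfeb, Lamp1, Ctsd and Grn. In each further list up to 3 genes of smallest p per direction were named, and among markers Aif1, Csf1r, Cx3cr1, Tmem119, P2ry12 and Ttr. Clcn7 and Tsc1, and the marker genes that passed in the microglia list, were named beyond this rule after their values were seen. Some genes of the further lists are counted and not reported by name here.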

Additional observations from a re-analysis of the deposited data

How the results depend on the processing

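The log2 fold change of the 10 genes past the test kept its sign in all 40 alternative settings. Ctsb, Ctsl and Cd63 passed in every setting. With single libraries left out, 8 to 11 of the 35 genes were higher and 0 to 2 lower, with a median log2 fold change of 0.027 to 0.065. The 8 higher genes other than Laptm5 passed whichever library was left out, Laptm5 missed the threshold when any 1 of 8 libraries was left out (Control X4571, X4677, X4679, X4685, X4686 and X4695, Ethanol X4758 and X4760) and Sgsh when any 1 of 9 was (Ethanol X4568, X4569, X4765 and X4766, Control X4570, X4571, X4685, X4686 and X4697). The highest adjusted p was 0.060 for Laptm5 and 0.074 for Sgsh.

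With runs left out, 5 genes were higher without run 1 and 5 without run 2. The number lower was 0 without run 1, 2, 3 or 4 and without a filter on low counts, where Sgsh had an adjusted p of 0.069, and 2 without run 6, where Ctsk passed (0.023). Without run 3, Ctsd (0.053), Npc1 (0.052) and Laptm5 (0.051) also missed the threshold, and without run 4 Laptm5 did (0.078). With the run as a block, 12 genes were higher and 1 lower, and calls over all genes rose too, to 1982 higher and 1363 lower.

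Over all genes tested, the number lower was 662 without a filter, 612 without the 4 libraries of low Ttr, 616, 612 and 499 without runs 1, 3 and 4, and 805 to 1438 with single libraries left out, where the number higher was 1268 to 1818. Upper-quartile factors gave 1373 higher and 1396 lower, against 1608 and 1028, at a median of -0.019 over all genes, and left the 35 genes at 9 higher and 1 lower.

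The further hydrolases past the test went from 4 to 2 with upper-quartile factors, without a filter and without the 4 low in Ttr, to 1 with the microglia covariate and without run 2, 3 or 6, and to 0 without run 4. DESeq2 gave 8 further membrane proteins in place of 5. The proton pump list held 1 with the microglia covariate and without run 3, autophagy 2 without run 1, and cathepsin inhibitors 1 without run 3 or 4. Leaving out single libraries gave 1 to 4 hydrolases, 5 to 7 membrane proteins, 1 to 3 pump genes, 2 to 3 sorting genes, 4 to 6 nutrient-sensing genes, 5 to 6 autophagy genes and 2 to 4 inhibitors. The number of positive relations with the microglia marker mean was 5, and 0 with run means removed.

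Changes of sign were limited to genes near 0 that did not pass. Tpp1 was above 0 without a filter (0.0055), with the run block (0.00062), with the microglia covariate (0.012), leaving out the 4 low in Ttr (0.0023), without run 1 (0.0056), run 3 (0.014) and run 4 (0.018), and from -0.019 to 0.012 over single libraries left out. Man2b1 was above 0 without runs 1, 3 and 4 (0.021, 0.015 and 0.013) and from -0.041 to 0.0024 over libraries left out. Gla was at -0.00038 without run 1, Npc2 at -0.0023 without run 2, and Naglu at 0.012 without run 1. Tfeb was at -0.012 with the microglia covariate, -0.0069 without run 2, and -0.00051 to 0.069 over libraries left out, and Lamp2 at -0.0048 to 0.051. Leaving out a run or library also leaves fewer animals in the fit, and the cause of these shifts was not tested. The labels share no replicate number between the groups, so animals could be matched only by run.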
